A study of Bos taurus with 6 samples.

Results

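Fetal rumen was compared with fetal liver in cattle, gene by gene, in 4 of the 6 RNA-sequencing libraries of the series: Rumen 1, Rumen 2, Liver 1 and Liver 2, which are the libraries labelled with these tissues. The study set out to describe DNA methylation across bovine fetal organs and pluripotent stem cell lines, and poly(A) RNA was sequenced beside it. All 6 libraries are labelled as wild-type, male and from Holstein fetuses of 90 days. The age was read from a crown-rump length of 13 to 16 cm. The pair of forebrain libraries entered the filter on low counts, the scaling of the libraries and the estimate of the spread, but not the comparison itself. Fetuses came from 4 healthy cows at a slaughterhouse and 2 of the fetuses were male, so the male libraries of 1 tissue come from at most 2 animals. The labels do not tie a library to a fetus, and no treatment, transgene or cell line is involved. Each p-value below measures only the spread between these libraries, which may be technical in part.

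The rumen is the first and largest forestomach of ruminants, where microbes ferment plant fibre after weaning. Its wall has a stratified squamous epithelium that later keratinises and takes up short-chain fatty acids, and beneath it connective tissue, layers of smooth muscle and the neurons and glia of the enteric plexus. The fetal liver serves plasma and blood: its hepatocytes secrete the proteins of fetal plasma, and between them lie the red cell, platelet and white cell precursors of fetal blood formation.

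The 4 libraries held 16550273 counts in Liver 1, 18528958 in Liver 2, 12910828 in Rumen 1 and 11936981 in Rumen 2. Levels below are in CPM, counts scaled to a library's effective size (its total times the TMM scaling factor of edgeR). The rumen libraries resembled each other and the liver libraries did not: among genes with a mean of at least 1000 counts in the tissue, the SD of the log2 ratio between replicates was 0.945 in liver and 0.211 in rumen. Hepatocyte markers fixed for this check (6 of the 7 are in the table) summed to 212690 and 178680 CPM in Liver 1 and Liver 2 and to 1.76 and 4.37 CPM in Rumen 1 and Rumen 2. Stratified epithelium markers (7 of 8 in the table) summed to 13275 and 10675 CPM in the rumen libraries, to 10.2 CPM in Liver 2 and to 0.149 CPM in Liver 1. KRT15 (7861 and 6270.5 CPM) and KRT4 (4612 and 3788 CPM) held most of the rumen sums. The markers KRT14 and TP63 were low in Rumen 1 and Rumen 2, KRT14 at 0.689 and 0.624 CPM (not tested) and TP63 at 1.3 and 5.15 CPM. The tissue labels therefore match the markers in all 4 libraries. The 4 skeletal muscle markers had no counts in liver and 1.53 and 1.56 CPM in rumen, and the brain and pancreas markers were at or near 0 in all 4. The adrenal markers, mostly STAR, summed to 4.99 and 21 CPM in the liver libraries and to 21.6 and 30.7 CPM in the rumen libraries. Markers of glandular stomach and intestine, mostly VIL1, summed to 19.1 and 36.2 CPM in the liver libraries and to 0.918 and 1.33 CPM in the rumen libraries.

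Of 11478 genes with enough counts over the 6 libraries to test, 4629 (40.3%) differed between rumen and liver. The threshold was an adjusted p under 0.05 (edgeR quasi-likelihood test, Benjamini-Hochberg over all 11478). The 11478 include genes counted in forebrain alone, which could not be called, such as the brain markers OTX2 and SLC17A6. A filter on the 4 liver and rumen libraries alone kept 10981 genes. The calls were split evenly, with 2304 genes higher in rumen (20.1%) and 2325 lower (20.3%). With library totals in place of the scaling factors the split became 2979 higher and 1785 lower, or 62.5% higher against 49.8%, and the median log2 difference (rumen minus liver) of all tested genes moved from -0.06 to 0.23. Differences were large: the median called gene differed by 2.36 on the log2 scale, and 332 higher and 422 lower genes passed a 64-fold difference. Among all called genes, 214 higher genes had no counts in either liver library and 260 lower genes had none in either rumen library. In bulk tissue, fewer cells of a type and less RNA per cell cannot be told apart, here and in every list below. The counts of each list are to be read beside the 20.1% higher and 20.3% lower over all tested genes.

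The count of calls moved with the library left out. A fit without 1 library has no measure of the spread within that tissue and takes it from the other tissues' pairs. Calls gained or lost in such a fit therefore do not tell how well the libraries of that tissue matched. Without Rumen 1 there were 1231 higher and 1086 lower genes, and without Rumen 2 there were 1258 and 1013. Without Liver 1 the calls rose to 3283 and 3245, and without Liver 2 to 3391 and 3479. Of the main calls, 4500 were called the same way without Liver 1 and 4516 without Liver 2. For each gene list below, a call is said to hold when it passed in the same direction in all 6 fits that each leave out 1 library. Across all tested genes, 1095 higher calls (9.54%) and 893 lower calls (7.78%) held.

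**Figure D1:**
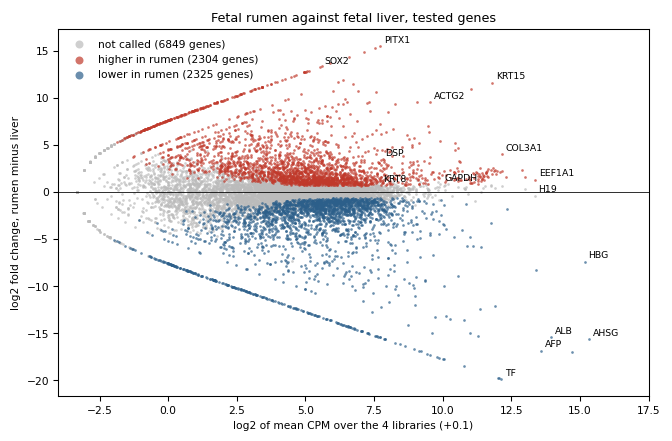
Each point is 1 of the 11478 tested genes, with the log2 of its mean CPM over the 4 libraries on the x axis and its fitted log2 fold change (rumen minus liver) on the y axis. The 2304 red genes were higher in rumen, the 2325 blue genes were lower, and the 2 curved edges are genes with no counts in 1 of the tissues.

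The steepest differences in favour of rumen, by a rule of the 15 largest called fold changes among genes with a mean of at least 20 CPM, all belonged to genes with no counts in either liver library. PITX1, a homeobox transcription factor best known from hindlimb patterning, had no counts in either liver library and 424 and 428 CPM in Rumen 1 and Rumen 2. This is at least 4114-fold higher, counted against the 3 counts over both liver libraries that a count of 0 allows. IVL encodes involucrin, a scaffold of the cornified envelope of squamous cells. It had no counts in either liver library and 421 and 329 CPM in Rumen 1 and Rumen 2, at least 3629.8-fold higher. UPK3BL1, a uroplakin-like gene, had no counts in either liver library and 314 and 253 CPM in Rumen 1 and Rumen 2. TRIM29, a tripartite-motif protein of squamous epithelia, had no counts in either liver library and 218 and 171 CPM in Rumen 1 and Rumen 2. SOX2, a transcription factor of foregut epithelium, had no counts in either liver library and 94.4 and 89.7 CPM in Rumen 1 and Rumen 2 and was at least 890.2-fold higher. The others fall into nerve genes (TUBB3, ELAVL4, PHOX2A and the neuropeptide genes CARTPT and PENK), the water channel gene AQP5, and LIX1, DAPL1, CHODL and CYP4B1. CARTPT, which encodes a neuropeptide precursor, had no counts in either liver library and 66.2 and 58.1 CPM in Rumen 1 and Rumen 2. PENK, the enkephalin precursor gene, had no counts in either liver library and 57.3 and 44.2 CPM in Rumen 1 and Rumen 2. In these genes both rumen libraries stood far above the floor and close to each other.

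Most of the 15 steepest differences in favour of liver were in genes of proteins that hepatocytes secrete. TF, which encodes the iron carrier transferrin, had 11934 and 6075 CPM in Liver 1 and Liver 2 and no counts in either rumen library, so it was at least 75824-fold lower in rumen. FETUB, a cystatin-family plasma protein gene, had 5947 and 11051 CPM in Liver 1 and Liver 2 and no counts in either rumen library (at least 74944-fold lower). APOA2, an apolipoprotein of high-density lipoprotein, had 7609 and 8771 CPM in Liver 1 and Liver 2 and no counts in either rumen library (at least 71025-fold lower). The liver libraries differed from each other in these genes, in both directions, by far less than either differed from rumen. ITIH3, an inter-alpha-trypsin inhibitor heavy chain, was the most uneven of them, with 1351 and 5735 CPM in Liver 1 and Liver 2 and no counts in either rumen library. MT1A, a metallothionein that binds zinc and copper, had 1404 and 1573 CPM in Liver 1 and Liver 2 and no counts in either rumen library.

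All 22 of the 22 tested plasma carrier genes were lower in rumen, and all 22 calls held. Their median log2 fold change was -15.35, or -13.74 with members that had no counts in 1 tissue set at the bound, beside -0.06 over all tested genes. Together they took 16.9% and 13.5% of the counts of Liver 1 and Liver 2 and 0.00959% and 0.0082% of those of Rumen 1 and Rumen 2. AHSG encodes fetuin-A, the calcium-binding glycoprotein of fetal serum. It had 98888 and 67409.8 CPM in Liver 1 and Liver 2 and 0.842 and 2.34 CPM in Rumen 1 and Rumen 2. Its log2 fold change was -15.67 ± 0.88 (n = 2 libraries per tissue, edgeR adjusted p = 0.000285). Each ± value in this text is an approximate SE, the size of the log2 fold change over the square root of the test's F. It rests on a spread estimated over all 6 libraries and shared in part between genes. ALB, for serum albumin, had 41194 and 21195 CPM in the liver libraries against 0.383 and 1.01 CPM in the rumen libraries, and its log2 fold change was -15.43 ± 0.84 (edgeR adjusted p = 0.000222). AFP, the fetal relative of albumin, had 27429.5 and 21353 CPM in the liver libraries against 0 and 0.39 CPM in the rumen libraries. Liver 1 held more of AHSG, ALB and AFP than Liver 2, and no rumen library came near either. ORM1, an acute-phase glycoprotein gene, ran the other way within liver, with 1895 CPM in Liver 1 and 7998 in Liver 2 against 0.23 and 0 in rumen.

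**Figure D2:**
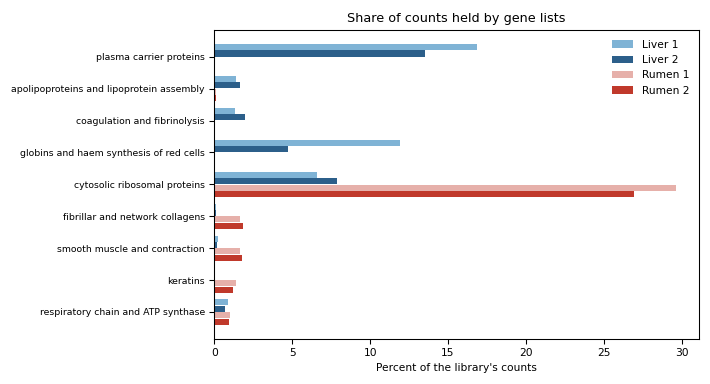
Bars give the percent of each library's counts that fell on the members of 9 gene lists (x axis, percent of counts). Plasma carriers took 16.9% and 13.5% of the liver libraries, the red cell list 11.9% and 4.73%, and cytosolic ribosomal proteins 29.6% and 26.9% of the rumen libraries.

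The other families of secreted liver proteins fell with a few exceptions each. Of 21 apolipoprotein and lipoprotein-assembly genes, 15 were lower (14 held) and 2 higher. APOE had 4302 and 4351 CPM in the liver libraries against 87.9 and 76.6 CPM in the rumen libraries, and APOA1, the main protein of high-density lipoprotein, 3246 and 4157 CPM in the liver libraries against 76.3 and 64.1 CPM in the rumen libraries. These 2 were 52.6-fold and 52.7-fold lower and so kept clear counts in rumen, whereas APOA2 had none. PLTP, which transfers phospholipids between lipoproteins, was the large exception, with 381 and 367 CPM in the rumen libraries against 19.7 and 14.9 CPM in the liver libraries (21.6-fold higher, edgeR adjusted p = 0.000227). APOD was the other, at 5.74 and 8.51 CPM in the rumen libraries against 0 and 0.321 CPM in the liver libraries.

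Among 24 serpins, 13 were lower (12 held) and 5 higher (3 held). Higher serpins numbered 3 without Rumen 1 or without Rumen 2. SERPINA1, the antitrypsin gene, had 42889.8 and 65699.7 CPM in Liver 1 and Liver 2 and 0.23 and 0.546 CPM in Rumen 1 and Rumen 2. SERPIND1, heparin cofactor II, had 1443 and 1151 CPM in the liver libraries against 1.61 and 2.11 CPM in the rumen libraries, and SERPINC1, antithrombin, had 924 and 819.6 CPM in the liver libraries against 1.68 and 0.468 CPM in the rumen libraries. The serpins that ran the other way are those of other tissues and functions. SERPINE2, protease nexin-1, had 78.1 and 61.3 CPM in the rumen libraries against 9.23 and 11.3 CPM in the liver libraries and was 6.78-fold higher. SERPINB4, a squamous-cell serpin, had 40.7 and 41.4 CPM in the rumen libraries against 1.79 and 0.963 CPM in the liver libraries and was 29.8-fold higher. SERPINH1, the collagen chaperone, had 867 and 721 CPM in the rumen libraries against 387 and 232 CPM in the liver libraries, but its call did not pass without Rumen 1 or without Rumen 2.

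Of 26 coagulation and fibrinolysis genes, 19 were lower (18 held) and 3 higher. The fibrinogen chains led: FGB had 6277 and 9189 CPM in the liver libraries against 0.765 and 2.65 CPM in the rumen libraries, FGA 2881 and 4117 CPM in the liver libraries against 0 and 0.546 CPM in the rumen libraries and FGG 1939 and 1811 CPM in Liver 1 and Liver 2 and no counts in either rumen library. F2, the prothrombin gene, had 539.8 and 2051 CPM in the liver libraries against 1.76 and 2.03 CPM in the rumen libraries, a log2 fold change of -9.41. F3, tissue factor, which starts clotting, had 194 and 187 CPM in the rumen libraries against 4.62 and 9.25 CPM in the liver libraries (27.4-fold higher). PLAT, the tissue plasminogen activator, had 133 and 129.9 CPM in the rumen libraries against 19.4 and 10.6 CPM in the liver libraries (8.77-fold higher). TFPI, the inhibitor of tissue factor, was higher with 15.1 and 19.1 CPM in the rumen libraries against 3.2 and 1.48 CPM in the liver libraries, a call lost without Rumen 2.

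Complement behaved alike: 23 of 27 genes were lower (15 held) and 2 higher. Lower complement genes numbered 15 without Rumen 1. Higher complement genes numbered 0 without Rumen 1, Rumen 2, Forebrain 1 or Forebrain 2. C3, the central component, had 544 and 517 CPM in the liver libraries against 10.1 and 13.2 CPM in the rumen libraries (45.5-fold lower). CFB, factor B of the alternative pathway, had 366 and 314 CPM in the liver libraries against 1.91 and 2.81 CPM in the rumen libraries, and CFI, the protease that inactivates C3b, had 416 and 619 CPM in the liver libraries against 3.37 and 4.53 CPM in the rumen libraries. CLU, clusterin, which also has roles outside complement, differed least of these at 1003 and 860.1 CPM in the liver libraries against 424 and 424 CPM in the rumen libraries and lost its call without either rumen library. C4A and C7 were the higher members, C4A at 29.5 and 30.7 CPM in the rumen libraries against 14.7 and 14.5 CPM in the liver libraries and C7 at 7.88 and 6.63 CPM in the rumen libraries against 1.04 and 1.99 CPM in the liver libraries, and neither call passed without Rumen 1 or without Rumen 2. CD46, a membrane regulator of complement on most cells, had 200.5 and 234 CPM in the liver libraries against 239.7 and 235 CPM in the rumen libraries and was not called (edgeR adjusted p = 0.644).

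Metabolic genes of the hepatocyte followed. None of the 41 tested genes of the urea cycle and amino acid breakdown was higher in rumen and 34 were lower (26 held). Higher members numbered 2 without Liver 2. CPS1, the entry enzyme of the urea cycle, had 1502 and 541 CPM in Liver 1 and Liver 2 and 0.459 and 0 CPM in Rumen 1 and Rumen 2 (log2 fold change -12.05 ± 1.12). GLUD1, glutamate dehydrogenase, had 1465 and 2295 CPM in the liver libraries against 170.5 and 186 CPM in the rumen libraries and was 10.6-fold lower. AHCY, which hydrolyses S-adenosylhomocysteine, had 1004 and 1572 CPM in the liver libraries against 318 and 263 CPM in the rumen libraries (4.43-fold lower). MAT1A, the liver form of methionine adenosyltransferase, had 498 and 699 CPM in the liver libraries against 0.842 and 2.58 CPM in the rumen libraries. FTCD and BHMT, enzymes of folate and betaine metabolism, had no counts in rumen, and in liver FTCD stood at 93.4 and 857 CPM and BHMT at 258 and 551 CPM. CPS1 was thus higher in Liver 1 and FTCD in Liver 2, while rumen was below both in each case.

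Glucose metabolism differed by isozyme rather than as a whole. Of 21 gluconeogenesis, glycogen and fructose genes, 11 were lower and 3 higher. Lower members numbered 6 without Rumen 1. Higher members of that list numbered 1 without Rumen 1, Forebrain 1 or Forebrain 2 and 0 without Rumen 2. Of 26 glycolysis genes, 6 were higher and 9 lower. Higher glycolysis genes numbered 13 without Liver 1 and 3 without Rumen 1. Lower glycolysis genes numbered 3 without Rumen 1, 4 without Rumen 2 and 5 without Forebrain 1 or without Forebrain 2. PKLR, the pyruvate kinase of liver and red cells, had 742 and 809 CPM in the liver libraries against 1.68 and 0.78 CPM in the rumen libraries (624-fold lower). PKM, the pyruvate kinase of muscle and most other tissues, had 448 and 419.7 CPM in the rumen libraries against 72.5 and 39.1 CPM in the liver libraries (7.78-fold higher). ALDOA, the aldolase of muscle, had 615 and 606 CPM in the rumen libraries against 172 and 119 CPM in the liver libraries (4.19-fold higher). Glycogen synthase split as pyruvate kinase did, with GYS2, the liver form, at 73.3 and 106 CPM in Liver 1 and Liver 2 and no counts in either rumen library, and GYS1, the muscle form, at 48.9 and 55.7 CPM in the rumen libraries against 16.3 and 27.6 CPM in the liver libraries, though the GYS1 call was lost without Rumen 1, Rumen 2, Forebrain 1 or Forebrain 2. SLC2A1, the glucose transporter of red cells and of many epithelia, had 1599 and 1202 CPM in the liver libraries against 194 and 184 CPM in the rumen libraries and was 7.42-fold lower. GAPDH, a common reference gene, had 831 and 584 CPM in the liver libraries against 1356 and 1091 CPM in the rumen libraries and was not called (edgeR adjusted p = 0.0655).

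Fat and sterol metabolism leaned to liver with smaller folds. Of 29 genes of fatty acid oxidation and ketone bodies, 16 were lower (7 held) and 1 higher. Lower oxidation genes numbered 7 without Rumen 1 and 9 without Rumen 2. Higher oxidation genes numbered 0 without Rumen 1, Rumen 2, Forebrain 1 or Forebrain 2. FABP1, the fatty acid binding protein of liver, had 189 and 245 CPM in Liver 1 and Liver 2 and no counts in either rumen library (at least 1889.7-fold lower). ACADS, short-chain acyl-CoA dehydrogenase, had 202 and 293 CPM in the liver libraries against 25.6 and 37.5 CPM in the rumen libraries (7.85-fold lower), and BDH2, the higher member, 43.8 and 46.7 CPM in the rumen libraries against 15 and 26.3 CPM in the liver libraries, a call lost without Rumen 1, Rumen 2, Forebrain 1 or Forebrain 2. Of 40 genes of sterol and fatty acid synthesis, 21 were lower (7 held) and 1 higher. Lower synthesis genes numbered 9 without Rumen 1 and 8 without Rumen 2. Higher synthesis genes numbered 2 without Liver 1, 5 without Liver 2 and 0 without Rumen 1 or without Rumen 2. SCD, stearoyl-CoA desaturase, had 305 and 632 CPM in the liver libraries against 84.5 and 101 CPM in the rumen libraries (5.06-fold lower), a call lost without Rumen 1. ME1, malic enzyme, was the higher member with 36.7 and 39.6 CPM in the rumen libraries against 9.01 and 15.8 CPM in the liver libraries, and this call was lost without either rumen library.

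Bile acid and hepatic transport genes were mostly lower in rumen as well. Of 23 bile acid and hepatic transport genes, 17 were lower (12 held) and none higher. Higher members of the bile acid list numbered 2 without Liver 2. SLC22A7, an organic anion transporter, had 252 and 989 CPM in Liver 1 and Liver 2 and no counts in either rumen library. SLCO1B3, which takes up bile acids from blood, had 54.1 and 120.4 CPM in Liver 1 and Liver 2 and no counts in either rumen library. KLB, the beta-klotho coreceptor for FGF19, had 149 and 178 CPM in the liver libraries against 6.28 and 7.41 CPM in the rumen libraries (23.8-fold lower). Of 48 conjugation and detoxification genes, 19 were lower (8 held) and 3 higher. Lower conjugation genes numbered 11 without Rumen 1 and 9 without Rumen 2. Higher conjugation genes numbered 6 without Liver 1, 11 without Liver 2, 1 without Rumen 1 and 0 without Rumen 2. EPHX2, soluble epoxide hydrolase, had 103 and 251 CPM in the liver libraries against 5.89 and 7.1 CPM in the rumen libraries (27.2-fold lower). ALDH2, the mitochondrial acetaldehyde dehydrogenase, had 539 and 714 CPM in the liver libraries against 261 and 237 CPM in the rumen libraries (2.52-fold lower), and its call was lost without Rumen 1 and without Rumen 2.

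Of 24 tested cytochromes P450, 7 were higher (29.2%) and 6 lower (25%), beside 20.1% and 20.3% over all tested genes. Higher P450 genes numbered 3 without Rumen 1, 2 without Rumen 2 and 4 without Forebrain 1 or without Forebrain 2. Lower P450 genes numbered 2 without Rumen 1 or without Rumen 2. CYP4F2, a fatty acid hydroxylase, had 79.8 and 135 CPM in Liver 1 and Liver 2 and no counts in either rumen library, and CYP8B1, the sterol hydroxylase that sets the cholic acid share of bile, had 5.36 and 38.1 CPM in Liver 1 and Liver 2 and no counts in either rumen library. CYP2C18 had 143 and 141 CPM in the rumen libraries against 0.819 and 8.41 CPM in the liver libraries (30.4-fold higher). CYP4B1 had no counts in either liver library and 70.9 and 55.4 CPM in Rumen 1 and Rumen 2, at least 612-fold higher. Both held without each library in turn. Bovine CYP2C and CYP4 genes are families of near-identical copies, so reads may have been split among them.

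Iron genes were lower together: 25 of 30 iron and haem handling genes were lower (19 held), and none was higher. Higher iron genes numbered 1 without Liver 2. This list shares members with the hepatocyte lists (TF) and the red cell lists (SLC25A37). SLC25A37, mitoferrin-1, had 2148 and 3164 CPM in the liver libraries against 97.1 and 99.7 CPM in the rumen libraries (27-fold lower). ALAD, an enzyme of haem synthesis, had 1042 and 1778 CPM in the liver libraries against 76.7 and 55.5 CPM in the rumen libraries. FTH1, the ferritin heavy chain that stores iron in most cells, differed less, with 8290.1 and 7842 CPM in the liver libraries against 2417 and 2006 CPM in the rumen libraries (3.65-fold lower, a call lost without Rumen 2).

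The transcription factors of hepatocytes were absent or low in rumen in part only. Of 22 tested, 14 were lower (7 held) and none higher. Lower factors numbered 8 without Rumen 1 and 9 without Rumen 2. HNF4A, the nuclear receptor that maintains hepatocyte identity, had 107 and 329 CPM in Liver 1 and Liver 2 and no counts in either rumen library (at least 1955-fold lower). FOXA3, a forkhead factor of liver and gut, had 46.2 and 99.2 CPM in the liver libraries against 0.0765 and 0 CPM in the rumen libraries. HHEX, a homeobox factor of the liver bud, had 37.4 and 85.4 CPM in the liver libraries against 1.3 and 3.36 CPM in the rumen libraries (26.3-fold lower). Liver 2 held about 2 to 3 times the level of Liver 1 in these 3 genes. RXRA and XBP1, factors with roles in many tissues, were not called, RXRA at 199 and 316 CPM in the liver libraries against 167 and 156 CPM in the rumen libraries and XBP1 at 245 and 248 CPM in the liver libraries against 187 and 170.3 CPM in the rumen libraries. The list of bile duct cells went against the liver: 7 of 12 genes were higher in rumen (7 held) and none lower. Lower bile duct genes numbered 3 without Liver 1 or without Liver 2. These are genes of simple and stratified epithelia alike. KRT19 had 305 and 241 CPM in the rumen libraries against 11.9 and 16.4 CPM in the liver libraries (19.2-fold higher), KRT7 256 and 176 CPM in the rumen libraries against 3.87 and 1.86 CPM in the liver libraries (75.6-fold higher) and EPCAM, an epithelial adhesion molecule, 205 and 171 CPM in the rumen libraries against 21.4 and 23.8 CPM in the liver libraries (8.3-fold higher).

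**Figure D3:**
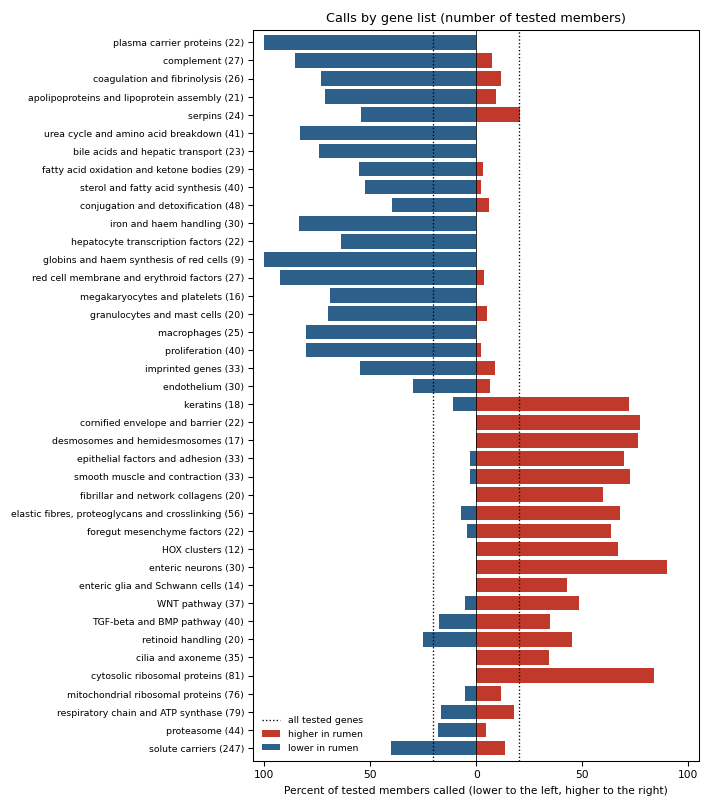
Each bar is the percent of a list's tested members (number in brackets) called lower in rumen (blue, to the left) or higher (red, to the right), and dotted lines mark the same over all tested genes, 20.3% lower and 20.1% higher. All 22 plasma carriers were lower, and 27 of 30 enteric neuron genes were higher.

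The insulin-like growth factor axis was divided by its binding proteins. IGF2, the fetal growth factor itself, had 6681 and 7845 CPM in Liver 1 and Liver 2 and 9879.9 and 8454 CPM in Rumen 1 and Rumen 2 and was not called (edgeR adjusted p = 0.766). IGFBP1 had 744 and 1256 CPM in Liver 1 and Liver 2 and no counts in either rumen library (at least 8787-fold lower in rumen). IGFBP6 had 453 and 304 CPM in the rumen libraries against 2.01 and 5.72 CPM in the liver libraries (97.1-fold higher), IGFBP5 47.4 and 43.2 CPM in the rumen libraries against 1.49 and 2.76 CPM in the liver libraries and IGFBP7 239.6 and 218 CPM in the rumen libraries against 69.7 and 64.5 CPM in the liver libraries. In all, 4 of 14 genes were higher and 5 lower. Lower members of the axis numbered 1 without Rumen 1 or without Rumen 2.

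Blood formation was the other large liver signature. All 9 of 9 globin and red cell haem synthesis genes were lower in rumen (7 held), as were 25 of 27 red cell membrane and erythroid factor genes (22 held). The globin list took 11.9% of the counts of Liver 1, 4.73% of Liver 2, 0.0559% of Rumen 1 and 0.0496% of Rumen 2. HBG, the fetal beta-like globin, had 109152 and 37467 CPM in Liver 1 and Liver 2 and 458 and 385 CPM in Rumen 1 and Rumen 2, a log2 fold change of -7.44 ± 0.69 (edgeR adjusted p = 0.000549). HBA, alpha globin, had 29819 and 13702 CPM in the liver libraries against 79.1 and 62.8 CPM in the rumen libraries. Globin copies are near-identical, so their single values are uncertain. HBG was 174-fold lower in rumen. ALAS2, which starts haem synthesis in red cell precursors, had 3599.5 and 2411 CPM in the liver libraries against 6.35 and 5.85 CPM in the rumen libraries, and AHSP, which stabilises alpha globin, had 1292 and 787 CPM in the liver libraries against 1.68 and 2.19 CPM in the rumen libraries. KLF1, the master factor of the red cell lineage, had 723 and 974 CPM in the liver libraries against 0 and 0.078 CPM in the rumen libraries. SLC4A1, the anion exchanger band 3, had 2608 and 529.6 CPM in the liver libraries against 0.0765 and 0 CPM in the rumen libraries.

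Platelet, granulocyte and macrophage genes were lower too. Of 16 megakaryocyte and platelet genes, 11 were lower (7 held) and none higher. Lower platelet genes numbered 7 without Rumen 1 or without Rumen 2. Higher platelet genes numbered 1 without Liver 1. PF4, platelet factor 4, had 1086 and 556 CPM in the liver libraries against 4.82 and 4.76 CPM in the rumen libraries (171-fold lower). ITGA2B, the platelet integrin alpha chain, had 227 and 488 CPM in the liver libraries against 9.57 and 11 CPM in the rumen libraries (34.7-fold lower). Of 20 granulocyte and mast cell genes, 14 were lower (8 held) and 1 higher. Lower granulocyte genes numbered 8 without Rumen 2. The cathelicidin genes, which encode antimicrobial peptides of neutrophil granules, had no counts in rumen: CATHL2 stood at 35.1 and 12.8 CPM in Liver 1 and Liver 2 and CATHL3 at 23.5 and 13 CPM. S100A12, a calgranulin listed with them, ran the other way with 501 and 451 CPM in the rumen libraries against 31.8 and 9.12 CPM in the liver libraries (23.3-fold higher, edgeR adjusted p = 0.00204), while its neighbour in function S100A8 had 20.3 and 6.23 CPM in Liver 1 and Liver 2 and no counts in either rumen library.

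Of 25 macrophage genes, 20 were lower (10 held) and none higher. Lower macrophage genes numbered 12 without Rumen 1 or without Rumen 2. The chains of C1q, made by tissue macrophages, were lower, with C1QC at 305 and 100.0 CPM in the liver libraries against 5.2 and 4.14 CPM in the rumen libraries and C1QB at 276 and 128 CPM in the liver libraries against 8.04 and 7.88 CPM in the rumen libraries. SLC40A1, the iron exporter ferroportin, had 508 and 424 CPM in the liver libraries against 45.5 and 44.2 CPM in the rumen libraries (10.4-fold lower). HMOX1, haem oxygenase, had 237 and 247 CPM in the liver libraries against 10.4 and 5.77 CPM in the rumen libraries (29.9-fold lower). The lysosomal proteases CTSB and LGMN, which many cells hold, were not called, CTSB at 359 and 338 CPM in the liver libraries against 325 and 309.7 CPM in the rumen libraries. The progenitor list was mixed, with 9 of 17 lower and 4 higher. Its higher members CD44, MEIS1 and THY1 are also genes of mesenchyme. CD44, a hyaluronan receptor, had 572 and 519 CPM in the rumen libraries against 23 and 15.7 CPM in the liver libraries (28.2-fold higher). Of 15 antigen presentation genes, 7 were lower and none higher. Lower antigen presentation genes numbered 4 without Rumen 1 and 2 without Rumen 2. Higher antigen presentation genes numbered 1 without Liver 1 or without Liver 2. CD74, the invariant chain, had 94.8 and 101 CPM in the liver libraries against 28.3 and 47.6 CPM in the rumen libraries (2.59-fold lower), a call lost without Rumen 1.

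Cell division genes were lower in rumen nearly throughout: 32 of 40 were lower (17 held) and 1 higher. Lower division genes numbered 21 without Rumen 1 and 17 without Rumen 2. Higher division genes numbered 3 without Liver 1 and 0 without Rumen 1. CENPF, a kinetochore protein of late cell cycle, had 616 and 564 CPM in the liver libraries against 54.6 and 52.1 CPM in the rumen libraries (11.1-fold lower, edgeR adjusted p = 0.000227). TK1, thymidine kinase, had 493 and 335 CPM in the liver libraries against 41.6 and 33.3 CPM in the rumen libraries (11.1-fold lower), and RRM2, a ribonucleotide reductase subunit, 694 and 532 CPM in the liver libraries against 84.4 and 98.5 CPM in the rumen libraries (6.7-fold lower). CDKN1A, an inhibitor of the cycle, was the higher member at 25.6 and 16.1 CPM in the rumen libraries against 6.1 and 6.29 CPM in the liver libraries, a call lost without Rumen 1. Liver 1 held more of CENPF, TK1 and RRM2 than Liver 2, as it did for the red cell and platelet lists. The summed erythroid markers stood at 147570 and 56145 CPM in Liver 1 and Liver 2 and at 546 and 456 CPM in rumen. Their part in the division genes was not tested.

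Endothelial genes differed in part. Of 30 endothelial genes, 9 were lower (4 held) and 2 higher. Lower endothelial genes numbered 18 without Liver 2 and 5 without Rumen 1, Rumen 2, Forebrain 1 or Forebrain 2. Higher endothelial genes numbered 1 without Rumen 1, Rumen 2, Forebrain 1 or Forebrain 2. STAB2, the hyaluronan scavenger receptor of liver sinusoids, had 339 and 275 CPM in the liver libraries against 0.918 and 0 CPM in the rumen libraries (log2 fold change -9.35). OIT3, another sinusoidal gene, had 218 and 239 CPM in the liver libraries against 1.99 and 3.51 CPM in the rumen libraries (82.7-fold lower). TEK and TIE1, receptors of endothelia in general, were lower as well, TEK at 104.7 and 76 CPM in the liver libraries against 45.9 and 44.4 CPM in the rumen libraries (2-fold) and TIE1 at 43.2 and 39.4 CPM in the liver libraries against 18.2 and 19.9 CPM in the rumen libraries (2.17-fold), and both calls were lost without Rumen 1, Rumen 2, Forebrain 1 or Forebrain 2. KDR, the VEGF receptor, had 146 and 106 CPM in the liver libraries against 95.1 and 71.5 CPM in the rumen libraries and was not called (edgeR adjusted p = 0.133), and ENG and PLVAP were not called either. CAV1, caveolin-1, which is found in endothelium and smooth muscle, had 249.7 and 244 CPM in the rumen libraries against 23 and 12.5 CPM in the liver libraries (13.9-fold higher).

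Of 22 genes of pericytes and hepatic stellate cells, 11 were lower (7 held) and 6 higher (3 held). Lower perivascular genes numbered 7 without Rumen 1 or without Rumen 2. Higher perivascular genes numbered 3 without Rumen 1 or without Rumen 2. The receptors for platelet-derived growth factor went opposite ways. PDGFRA had 127 and 155 CPM in the rumen libraries against 6.33 and 4.17 CPM in the liver libraries (26.9-fold higher, edgeR adjusted p = 0.000247), and PDGFRB had 179.5 and 89.8 CPM in the liver libraries against 6.96 and 7.8 CPM in the rumen libraries (18.2-fold lower, edgeR adjusted p = 0.000851). RELN, reelin, a stellate cell gene in liver, had 116 and 130.2 CPM in the liver libraries against 8.26 and 7.73 CPM in the rumen libraries (15.4-fold lower), and COLEC11, a collectin, had 68.6 and 57.5 CPM in the liver libraries against 0 and 0.078 CPM in the rumen libraries.

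On the rumen side, the squamous epithelium stood out. Of 18 tested keratins, 13 were higher (8 held) and 2 lower, with a median log2 fold change of 4.42, or 4.11 with members that had no counts in 1 tissue set at the bound. Higher keratins numbered 8 without Rumen 1 or without Rumen 2. Lower keratins numbered 0 without Rumen 1 or without Rumen 2 and 1 without Forebrain 1 or without Forebrain 2. KRT15, a basal cell keratin, had 0 and 4.37 CPM in Liver 1 and Liver 2 and 7861 and 6270.5 CPM in Rumen 1 and Rumen 2 (log2 fold change 11.62 ± 1.62, edgeR adjusted p = 0.00383). KRT4, a keratin of the upper layers of moist squamous epithelia, had 0 and 4.24 CPM in Liver 1 and Liver 2 and 4612 and 3788 CPM in Rumen 1 and Rumen 2. KRT5, the basal partner keratin, had 0 and 0.835 CPM in Liver 1 and Liver 2 and 351 and 251 CPM in Rumen 1 and Rumen 2. Liver 1 had no counts of these 3 keratins and Liver 2 a few CPM, so the liver level rests on Liver 2, and the source of these counts was not tested. KRT8 and KRT18, the pair of simple epithelia, behaved otherwise. KRT18 had 89.6 and 206 CPM in the liver libraries against 44.6 and 46.9 CPM in the rumen libraries and was 3.23-fold lower, a call lost without either rumen library, while KRT8 had 150.1 and 166 CPM in the liver libraries against 268 and 248 CPM in the rumen libraries and was not called (edgeR adjusted p = 0.18).

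**Figure D4:**
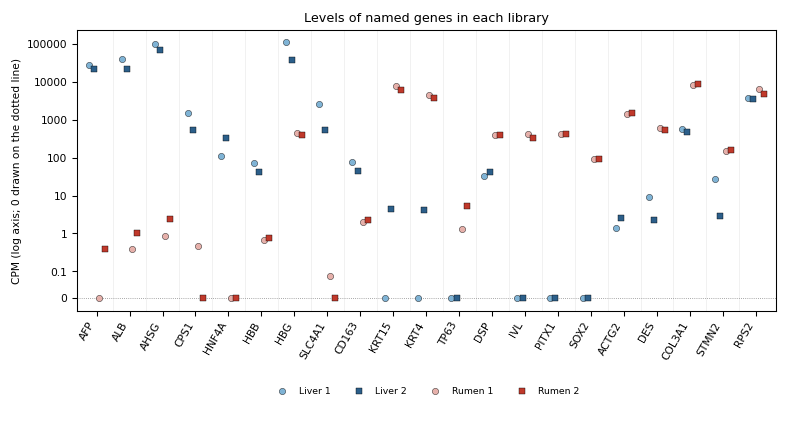
Points give the CPM (y axis, log scale, with 0 drawn on the dotted line) of 21 named genes in Liver 1, Liver 2, Rumen 1 and Rumen 2. KRT15 and KRT4 have 0 CPM in Liver 1 and 4.37 and 4.24 CPM in Liver 2.

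The cornified envelope and barrier list followed the keratins: 17 of 22 genes were higher (14 held) and none lower. KRTDAP, a protein of differentiating keratinocytes, had 419 and 332 CPM in the rumen libraries against 0 and 0.45 CPM in the liver libraries (log2 fold change 10.57). SFN, the 14-3-3 protein of epithelial cells, had 337 and 306 CPM in the rumen libraries against 0 and 0.771 CPM in the liver libraries. SPINK5, a protease inhibitor of squamous barriers, had 122 and 97.5 CPM in the rumen libraries against 0.0744 and 0.706 CPM in the liver libraries (log2 fold change 8.05). EVPL, envoplakin, had 166 and 161 CPM in the rumen libraries against 0.67 and 1.86 CPM in the liver libraries (log2 fold change 6.98). In these 4 genes both rumen libraries stood at like levels and both liver libraries under 2 CPM.

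Junction genes were shared more widely between the tissues. Of 17 desmosome and hemidesmosome genes, 13 were higher (10 held) and none lower. Lower desmosome genes numbered 1 without Liver 2. DSP, desmoplakin, had 401 and 389.7 CPM in the rumen libraries against 33.3 and 41.5 CPM in the liver libraries (10.6-fold higher), and JUP, plakoglobin, had 500.1 and 415 CPM in the rumen libraries against 63.4 and 60.6 CPM in the liver libraries (7.38-fold higher). PKP3, a plakophilin of stratified epithelia, had 134 and 104 CPM in the rumen libraries against 0.744 and 0.257 CPM in the liver libraries (239-fold higher). DSP and JUP thus had clear counts in liver, where PKP3 was under 1 CPM. Of 33 epithelial factors and adhesion genes, 23 were higher (16 held) and 1 lower. Lower epithelial genes numbered 3 without Liver 1 or without Liver 2 and 0 without Rumen 1, Rumen 2, Forebrain 1 or Forebrain 2. KLF5, a Krüppel-like factor of proliferating gut epithelium and smooth muscle, had 1061 and 1069 CPM in the rumen libraries against 0.968 and 1.73 CPM in the liver libraries (log2 fold change 9.60 ± 0.40). ESRP1, an epithelial splicing factor, had 136 and 154 CPM in the rumen libraries against 0.298 and 0.128 CPM in the liver libraries. TFAP2A, a factor of surface epithelia, had 119 and 130.0 CPM in the rumen libraries against 0 and 0.45 CPM in the liver libraries. TP63, the master factor of squamous epithelium, had no counts in either liver library and 1.3 and 5.15 CPM in Rumen 1 and Rumen 2, and its call was lost without Rumen 1, Rumen 2, Forebrain 1 or Forebrain 2. The rumen pair was uneven here, at low levels.

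Of 29 genes for absorption, acid-base and urea transport, 8 were higher (27.6%) and 5 lower (17.2%), beside 20.1% and 20.3% over all tested genes. Higher absorption genes numbered 5 without Rumen 2. Water channels differed by member. AQP3, of squamous epithelia, had 109 and 81.6 CPM in the rumen libraries against 0.298 and 0.642 CPM in the liver libraries (196-fold higher), AQP5 had no counts in either liver library and 78 and 45.4 CPM in Rumen 1 and Rumen 2, and AQP8, of hepatocytes, had 142 and 268 CPM in Liver 1 and Liver 2 and no counts in either rumen library. ATP1B3, a beta subunit of the sodium pump, had 484 and 486 CPM in the rumen libraries against 62.5 and 88.4 CPM in the liver libraries (6.42-fold higher). ATP6V1B1, a proton pump subunit, had 97.2 and 79.2 CPM in the rumen libraries against 1.04 and 2.83 CPM in the liver libraries (45-fold higher). CA2, a carbonic anhydrase also abundant in red cells, had 174 and 82.5 CPM in the liver libraries against 6.5 and 7.88 CPM in the rumen libraries (17.8-fold lower). SLC14A1, the urea transporter of red cells and of rumen epithelium, had 26.5 and 14.7 CPM in the liver libraries against 1.45 and 1.09 CPM in the rumen libraries (16.1-fold lower).

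The muscle layers gave the next list. Of 33 smooth muscle and contraction genes, 24 were higher in rumen (19 held) and 1 lower. Lower contraction genes numbered 3 without Liver 2 and 0 without Rumen 1, Rumen 2, Forebrain 1 or Forebrain 2. They took 1.67% and 1.8% of the counts of Rumen 1 and Rumen 2 and 0.263% and 0.155% of those of Liver 1 and Liver 2. ACTG2, the actin of visceral smooth muscle, had 1.41 and 2.5 CPM in Liver 1 and Liver 2 and 1402 and 1548 CPM in Rumen 1 and Rumen 2 (log2 fold change 9.54 ± 0.55, edgeR adjusted p = 0.000227). MYH11, smooth muscle myosin, had 1369.7 and 1469 CPM in the rumen libraries against 14.6 and 19.3 CPM in the liver libraries (83.6-fold higher). DES, desmin, had 622 and 528 CPM in the rumen libraries against 9.08 and 2.25 CPM in the liver libraries (log2 fold change 6.67). MYLK, the kinase that triggers contraction, had 2411 and 2899 CPM in the rumen libraries against 158 and 84.1 CPM in the liver libraries (22-fold higher). TLN1, talin, which platelets also hold in quantity, was the lower member, with 948 and 535 CPM in the liver libraries against 377 and 383 CPM in the rumen libraries, and this call was lost without Rumen 1, Rumen 2, Forebrain 1 or Forebrain 2. The rumen libraries were close to each other in all of these, and Liver 1 exceeded Liver 2 in DES and MYLK.

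Connective tissue genes were higher with it. Of 20 collagens, 12 were higher (10 held) and none lower. COL3A1, of loose connective tissue, had 580.2 and 484 CPM in Liver 1 and Liver 2 and 8379 and 8769 CPM in Rumen 1 and Rumen 2 (16.1-fold higher, edgeR adjusted p = 0.000358). COL1A1 had 2777 and 2980.0 CPM in the rumen libraries against 151 and 71.2 CPM in the liver libraries (25.9-fold higher), and COL12A1, which decorates fibrils, 288 and 312 CPM in the rumen libraries against 6.55 and 3.6 CPM in the liver libraries (59.3-fold higher). COL18A1, a basement membrane collagen that hepatocytes also make, had 268 and 651 CPM in the liver libraries against 595 and 577 CPM in the rumen libraries and was not called (edgeR adjusted p = 0.518). Collagens together made up 1.67% and 1.86% of the rumen counts and 0.108% and 0.125% of the liver counts.

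Of 56 genes of elastic fibres, proteoglycans and crosslinking, 38 were higher (29 held) and 4 lower. Lower members of this list numbered 7 without Liver 1 and 2 without Rumen 1 or without Rumen 2. ELN, elastin, had 940.3 and 866 CPM in the rumen libraries against 42.2 and 22.3 CPM in the liver libraries (28-fold higher). DCN, the small proteoglycan decorin, had 1324 and 1440.4 CPM in the rumen libraries against 103 and 103 CPM in the liver libraries (13.4-fold higher), and SPARCL1 had 729.7 and 927 CPM in the rumen libraries against 16.5 and 8.48 CPM in the liver libraries (66.3-fold higher). FN1, fibronectin, which hepatocytes release into plasma and fibroblasts lay down in tissue, had 642 and 855 CPM in the liver libraries against 971 and 1115 CPM in the rumen libraries and was not called (edgeR adjusted p = 0.16). GPC3, glypican-3, a growth-restraining proteoglycan abundant in fetal liver, was lower, with 2393 and 1748 CPM in the liver libraries against 136 and 131 CPM in the rumen libraries (15.5-fold lower). Of 24 laminins and integrins, 9 were higher and 4 lower. Lower laminins and integrins numbered 8 without Liver 2. The lower ones are the blood cell integrins ITGA2B, ITGB3, ITGA4 and ITGB2, of which ITGA4 lost its call without either rumen library. LAMB1, a laminin chain of most basement membranes, had 285 and 337 CPM in the rumen libraries against 81.5 and 78.5 CPM in the liver libraries (3.89-fold higher).

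Regional transcription factors of the gut wall were mostly higher in rumen. Of 22 foregut mesenchyme factors, 14 were higher (10 held) and 1 lower. After PITX1, OSR1, a zinc finger factor of foregut and urogenital mesoderm, had 148 and 109 CPM in the rumen libraries against 0.149 and 0 CPM in the liver libraries. MEIS1, a HOX partner, had 345 and 371 CPM in the rumen libraries against 25.7 and 17.3 CPM in the liver libraries (16.7-fold higher), and TCF21, a factor of visceral mesenchyme, had 150.4 and 181 CPM in the rumen libraries against 20.8 and 7.71 CPM in the liver libraries (11.6-fold higher). GATA4, a factor of endoderm and stellate cells, was the lower member, with 35.5 and 36.3 CPM in the liver libraries against 0.153 and 0 CPM in the rumen libraries. NR2F2, a nuclear receptor of mesenchyme and veins, had 56.9 and 80 CPM in the liver libraries against 64.1 and 79.3 CPM in the rumen libraries and was not called.

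Of 12 tested HOX genes, 8 were higher in rumen (3 held) and none lower. Higher HOX genes numbered 3 without Rumen 1 or without Rumen 2. Lower HOX genes numbered 1 without Liver 1, Liver 2 or Rumen 1. HOXC4 had 60.8 and 63.8 CPM in the rumen libraries against 0.0744 and 0.193 CPM in the liver libraries, HOXC5 no counts in either liver library and 9.72 and 11.7 CPM in Rumen 1 and Rumen 2 and HOXB3 67.2 and 64.5 CPM in the rumen libraries against 5.81 and 8.8 CPM in the liver libraries. The HOXC genes were thus near the floor in liver, while HOXB3 was present there. HOXA5 and HOXA4 were not called, HOXA5 at 20.8 and 33.7 CPM in the liver libraries against 32 and 36.1 CPM in the rumen libraries.

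Signalling genes differed as mixtures. Of 37 WNT pathway genes, 18 were higher (9 held) and 2 lower. Higher WNT genes numbered 9 without Rumen 1 and 10 without Rumen 2. Lower WNT genes numbered 1 without Rumen 1, Rumen 2, Forebrain 1 or Forebrain 2. The secreted WNT antagonists were among both. SFRP2 had 308 and 388 CPM in the rumen libraries against 6.77 and 20.7 CPM in the liver libraries (25.3-fold higher), SFRP1 118 and 127 CPM in the rumen libraries against 15.1 and 4.43 CPM in the liver libraries (12.6-fold higher), DKK3 82.5 and 89.2 CPM in the rumen libraries against 2.75 and 1.54 CPM in the liver libraries (40.1-fold higher) and SFRP5 63.3 and 55.9 CPM in the liver libraries against 2.45 and 1.48 CPM in the rumen libraries (30.2-fold lower). CTNNB1, beta-catenin, had 458 and 499 CPM in the rumen libraries against 264 and 248 CPM in the liver libraries (1.87-fold higher), a call lost without either rumen library. Of 40 TGF-beta and BMP genes, 14 were higher and 7 lower. Higher TGF-beta and BMP genes numbered 9 without Rumen 2. Lower TGF-beta and BMP genes numbered 2 without Rumen 1, 1 without Rumen 2 and 3 without Forebrain 1 or without Forebrain 2. FSTL1, a follistatin-like BMP inhibitor, had 708 and 660.5 CPM in the rumen libraries against 198 and 164 CPM in the liver libraries (3.78-fold higher). SMAD6, an inhibitory SMAD of endothelium, had 122 and 65.5 CPM in the liver libraries against 14.6 and 22.4 CPM in the rumen libraries (5.08-fold lower), a call lost without Rumen 1. GDF2, which encodes BMP9, a hepatic ligand of the endothelium, had 16.7 and 3.21 CPM in Liver 1 and Liver 2 and no counts in either rumen library, and its call was lost without either rumen library.

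In the hedgehog pathway, which signals from gut epithelium to mesenchyme, 4 of 11 genes were higher and 2 lower. Higher hedgehog genes numbered 2 without Rumen 1 or without Rumen 2. Lower hedgehog genes numbered 1 without Rumen 1 or without Rumen 2. GLI1, a target and effector, had 16.5 and 18.4 CPM in the rumen libraries against 0.968 and 0.771 CPM in the liver libraries (19.9-fold higher), and BOC, a coreceptor, had 55.8 and 63.7 CPM in the rumen libraries against 2.61 and 2.44 CPM in the liver libraries (23.6-fold higher). HHIP, the secreted inhibitor, had 33.6 and 39.2 CPM in the liver libraries against 5.13 and 2.42 CPM in the rumen libraries (9.64-fold lower). IHH, a ligand, was lower at 5.88 and 43 CPM in the liver libraries against 0 and 0.624 CPM in the rumen libraries, where Liver 2 held most of it, and its call was lost without either rumen library. Of 18 Notch pathway genes, 6 were higher and 3 lower. Lower Notch genes numbered 5 without Liver 1. JAG1, a ligand, had 208 and 235 CPM in the rumen libraries against 22.9 and 41.8 CPM in the liver libraries (6.82-fold higher), and HES1, a target, had 86.9 and 88.6 CPM in the rumen libraries against 7.59 and 9.89 CPM in the liver libraries (10-fold higher). DLK1, an imprinted non-canonical ligand of fetal hepatoblasts, had 2753 and 3609 CPM in the liver libraries against 214 and 157 CPM in the rumen libraries (17.2-fold lower).

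Of 20 retinoid genes, 9 were higher and 5 lower. Higher retinoid genes numbered 2 without Rumen 1 and 3 without Rumen 2. Lower retinoid genes numbered 2 without Rumen 1 or without Rumen 2. The plasma carriers were on the liver side. RBP4 had 2183 and 1365 CPM in the liver libraries against 88.1 and 65.9 CPM in the rumen libraries (23-fold lower), and TTR, its partner, had 2179.6 and 2691 CPM in the liver libraries against 0.306 and 0.078 CPM in the rumen libraries (log2 fold change -13.56). LRAT, which stores retinol as ester in stellate cells, had 22.6 and 18.9 CPM in the liver libraries against 5.05 and 5.23 CPM in the rumen libraries (4.03-fold lower, a call lost without either rumen library). RBP4, TTR and LRAT stood on the liver side, unlike the 9 higher members, which are not named here. Of 36 genes of the FGF, EGF, HGF and PDGF families, 13 were higher (10 held) and 6 lower (5 held). MST1, which encodes the hepatic HGF-like protein, had 298 and 2016 CPM in the liver libraries against 12.4 and 6.95 CPM in the rumen libraries. It was uneven within liver. HGF itself had 12.8 and 4.56 CPM in Liver 1 and Liver 2 and no counts in either rumen library. Both genes stood on the liver side, unlike the 13 higher members, which are not named here.

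Nerve genes of the gut wall were higher in rumen nearly throughout. Of 30 enteric neuron genes, 27 were higher (23 held) and none lower. PRPH, peripherin, a neurofilament of peripheral neurons, had 165 and 197 CPM in the rumen libraries against 0.0744 and 0.385 CPM in the liver libraries (log2 fold change 9.51 ± 0.52, edgeR adjusted p = 0.000222). TUBB3, neuronal tubulin, had no counts in either liver library and 124 and 117 CPM in Rumen 1 and Rumen 2 (at least 1164-fold higher). ELAVL4, a neuronal RNA-binding protein, had no counts in either liver library and 58.4 and 74.4 CPM in Rumen 1 and Rumen 2, and PHOX2A, a factor of autonomic neurons, no counts in either liver library and 60 and 62.6 CPM in Rumen 1 and Rumen 2. GFRA1, the GDNF coreceptor, had 63.2 and 67 CPM in the rumen libraries against 2.68 and 3.21 CPM in the liver libraries (22-fold higher). STMN2, a growth cone protein, had 149 and 161 CPM in the rumen libraries against 27.2 and 2.89 CPM in the liver libraries, and its call was lost without any 1 rumen or forebrain library. UCHL1, which is found in neurons, had 8.19 and 44.3 CPM in the liver libraries against 109 and 106 CPM in the rumen libraries and was not called (edgeR adjusted p = 0.055).

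Of 14 genes of enteric glia and Schwann cells, 6 were higher (4 held) and none lower. Lower glial genes numbered 1 without Liver 1 and 2 without Liver 2. SOX10, the factor of glial precursors, had no counts in either liver library and 22.6 and 19.7 CPM in Rumen 1 and Rumen 2 (at least 205-fold higher). S100B had 31.3 and 24.2 CPM in the rumen libraries against 4.02 and 5.2 CPM in the liver libraries (6-fold higher), and FABP7, of radial and enteric glia, had 31.6 and 37.3 CPM in the rumen libraries against 2.68 and 3.53 CPM in the liver libraries (11-fold higher). ERBB3, the neuregulin receptor of glia and of epithelia, had 94.2 and 172 CPM in the liver libraries against 165 and 138 CPM in the rumen libraries and was not called. Chromogranin genes were present as well. CHGA had 42 and 40.5 CPM in the rumen libraries against 4.47 and 5.84 CPM in the liver libraries (7.98-fold higher). CHGB had 12.8 and 8.27 CPM in the rumen libraries against 0.149 and 0.257 CPM in the liver libraries.

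Among the genes every cell uses, the cytosolic ribosomal proteins stood apart. Of 81 tested, 68 were higher in rumen (39 held) and none lower, with a median log2 fold change of 1.58. Higher ribosomal protein genes numbered 39 without Rumen 1. Lower ribosomal protein genes numbered 1 without Liver 1 or without Liver 2. They took 29.6% and 26.9% of the counts of Rumen 1 and Rumen 2 and 6.56% and 7.87% of those of Liver 1 and Liver 2. RPLP1, a stalk protein of the large subunit, had 13596 and 11695 CPM in the rumen libraries against 2287 and 2846 CPM in the liver libraries (4.93-fold higher). RPS3A had 7324 and 6805 CPM in the rumen libraries against 1609 and 1596 CPM in the liver libraries (4.41-fold higher). EEF1A1, the elongation factor, had 15733 and 14346 CPM in the rumen libraries against 7717 and 4722 CPM in the liver libraries, a call lost without either rumen library, and TPT1, whose mRNA carries the same 5′ control element as ribosomal protein mRNAs, had 12928 and 11970.1 CPM in the rumen libraries against 4285 and 3827 CPM in the liver libraries (3.07-fold higher). Ribosomal proteins, EEF1A1 and TPT1 have many processed copies in the genome, so their single values are uncertain.

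The other large complexes had smaller shares of calls than all tested genes, in both directions. Of 76 mitochondrial ribosomal proteins, 9 were higher and 4 lower, beside 20.1% and 20.3% over all genes. Higher mitochondrial ribosomal proteins numbered 23 without Liver 1, 14 without Liver 2, 1 without Rumen 1 and 2 without Rumen 2. Lower mitochondrial ribosomal proteins numbered 7 without Liver 1, 18 without Liver 2 and 1 without Rumen 1 or without Rumen 2. Of 79 respiratory chain and ATP synthase genes, 14 were higher (17.7%) and 13 lower (16.5%). Higher respiratory genes numbered 27 without Liver 1, 4 without Rumen 1, 5 without Rumen 2 and 8 without Forebrain 1 or without Forebrain 2. Lower respiratory genes numbered 23 without Liver 2, 3 without Rumen 1, 2 without Rumen 2 and 7 without Forebrain 1 or without Forebrain 2. SDHA, of complex II, had 419 and 359 CPM in the liver libraries against 66.8 and 62.8 CPM in the rumen libraries (6-fold lower), while ATP5MC2, a subunit of the ATP synthase ring, had 826 and 734 CPM in the rumen libraries against 199 and 165 CPM in the liver libraries (4.28-fold higher). Of 44 proteasome genes, 8 were lower (18.2%) and 2 higher (4.55%). Lower proteasome genes numbered 20 without Liver 2, 0 without Rumen 1, 1 without Rumen 2 and 4 without Forebrain 1 or without Forebrain 2. Higher proteasome genes numbered 9 without Liver 1, 5 without Liver 2, 1 without Rumen 1 and 0 without Rumen 2. In these 3 complexes the number called moved when a liver or a rumen library was left out, and most members were not called.

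Imprinted genes, which are expressed from 1 parental copy and are active in fetal growth, were lower in rumen more often than not: 18 of 33 (9 held) against 3 higher. Lower imprinted genes numbered 9 without Rumen 1 or without Rumen 2. Higher imprinted genes numbered 8 without Liver 2. PEG10 had 4019 and 8535 CPM in the liver libraries against 589 and 640.2 CPM in the rumen libraries (10.2-fold lower), PEG3 2515 and 5434 CPM in the liver libraries against 161 and 133 CPM in the rumen libraries (27.1-fold lower) and NNAT 3537 and 7049.8 CPM in the liver libraries against 84.9 and 99.5 CPM in the rumen libraries (57.4-fold lower). MEST was on the other side, with 724 and 692 CPM in the rumen libraries against 52.4 and 52.3 CPM in the liver libraries (13.5-fold higher), and DIRAS3 with 80.7 and 98 CPM in the rumen libraries against 0 and 0.321 CPM in the liver libraries. H19 and IGF2, neighbours under shared control, were not called: H19 had 8121 and 15573 CPM in the liver libraries against 8589 and 9387 CPM in the rumen libraries (edgeR adjusted p = 0.582). GNAS had 1923 and 2978 CPM in the liver libraries against 2969 and 3469 CPM in the rumen libraries and was not called. MEG3, a non-coding RNA, had 381 and 5768 CPM in Liver 1 and Liver 2 and 1508 and 1689 CPM in Rumen 1 and Rumen 2, so both rumen libraries lay between the liver libraries and no difference could be called (edgeR adjusted p = 0.484).

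The liver libraries differed from each other by at least 2-fold in 3772 of the 11478 tested genes (32.9%), 1814 higher in Liver 2 (15.8%) and 1958 higher in Liver 1 (17.1%). These are single libraries, so the differences have no replicate check. The rumen libraries differed by as much in 1229 genes. Of the genes called between rumen and liver, 25.1% had a liver pair past 2-fold, and of those not called 38.1% had one. Among the 6849 genes not called, 1611 had both rumen libraries between the liver libraries.

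The difference within liver leaned to 1 side in some lists, in part of their members. Past 2-fold, 17.1% of all tested genes were higher in Liver 1 and 15.8% in Liver 2. Of 9 globin list genes, 5 were higher in Liver 1 and 0 in Liver 2. In the same order, the counts were 9 and 0 of 27 red cell membrane genes and 9 and 1 of 16 platelet genes. They were 11 and 0 of 20 granulocyte genes and 8 and 0 of 25 macrophage genes. Division genes had 10 and 0 of 40, and smooth muscle genes 11 and 0 of 33. Lists of other functions leaned so as well. Proteasome genes had 10 and 1 of 44, matrix protease genes 9 and 1 of 19 and elastic fibre list genes 14 and 5 of 56. The order was reversed in several lists of hepatic metabolism. Sterol and fatty acid synthesis had 3 higher in Liver 1 and 14 in Liver 2 of 40, and cytochromes P450 2 and 10 of 24. Conjugation genes had 4 and 12 of 48, and urea cycle and amino acid genes 4 and 10 of 41. It was not reversed in fatty acid oxidation and ketone bodies, with 4 and 2 of 29, or in the glycolytic isozymes, with 6 and 5 of 26. The plasma carriers had 2 and 3 of 22. Outside hepatic metabolism, imprinted genes had 1 and 8 of 33 and numbered zinc finger genes 28 and 32 of 163.

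Single genes show how wide the gap was. TFRC, the transferrin receptor of red cell precursors, had 528 and 28.5 CPM in Liver 1 and Liver 2 and 1.07 and 1.09 CPM in Rumen 1 and Rumen 2, a ratio of 18.4 in favour of Liver 1. TUBB1, the tubulin of platelets, had 213 and 14.6 CPM in Liver 1 and Liver 2 and 1.07 and 0.936 CPM in Rumen 1 and Rumen 2. AGT, angiotensinogen, had 799 and 60.1 CPM in Liver 1 and Liver 2 and 0.153 and 0 CPM in Rumen 1 and Rumen 2. All 3 had about 1 CPM or less in rumen. TFRC and TUBB1 were both called lower there, and AGT had a log2 fold change of -12.28. In the other direction, MEG3 was 15.1 times as high in Liver 2 as in Liver 1. MLXIPL, a carbohydrate-responsive factor of hepatocytes, had 24.6 and 217 CPM in Liver 1 and Liver 2 and no counts in either rumen library. XPC, a DNA repair gene, had 60.2 and 455 CPM in Liver 1 and Liver 2 and 91 and 99.5 CPM in Rumen 1 and Rumen 2, and EIF4H, a translation factor, had 201 and 14 CPM in Liver 1 and Liver 2 and 41.5 and 28.2 CPM in Rumen 1 and Rumen 2. In XPC and EIF4H the rumen libraries lay between the liver libraries, and whether rumen reads above or below liver depends on which liver library is used.

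**Figure D5:**
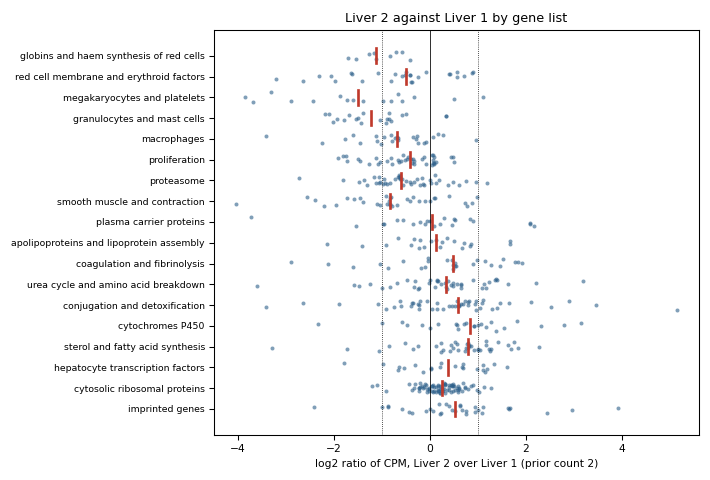
Each point is a tested gene of the list on the y axis, the x axis is the log2 ratio of its CPM in Liver 2 to that in Liver 1, red bars are list medians and dotted lines mark 2-fold. Median ratios were -1.12 for the globin list and -1.49 for platelets, and 0.84 for cytochromes P450 and 0.79 for sterol and fatty acid synthesis.

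Some of the differences lay side by side in the genome. The order of genes in RefSeq's assembly ARS-UCD2.0 was used only to see which tested genes neighbour each other (11312 of them were placed), since the build behind the counts is not given in the sources used here. Runs of at least 6 neighbouring tested genes, all called in 1 direction, numbered 9 for genes lower in rumen and 4 for genes higher. The longest, of 10 genes, ran from CLEC4A and CD163 to C1RL, C1R, C1S, LPCAT3 and EMG1, and so joins macrophage and complement genes, all lower in rumen. A run of 8 held the cathelicidin genes with CAMP and CDC25A, another of 8 held SERPINA10, SERPINA1, SERPINA11, SERPINA5 and SERPINA3-type genes up to DICER1, and a further run of 8 held CRP and APCS, the pentraxin genes, and CD5L. The longest run higher in rumen was of 7 type I keratin genes: KRT24, KRT10, KRT20, KRT23, KRT15, KRT19 and KRT17. The calls of CD5L, C1R, C1S, KRT20, KRT23 and KRT24 were lost without either rumen library. These runs were found after the values were seen, and no test was made of their length.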

How the data were processed

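Per the labels' protocols, poly(A) RNA went into libraries of the NEBNext Ultra kit. The authors deposited 1 table of read counts per gene symbol for all 6 libraries, of which the 4 liver and rumen libraries are compared here. HISAT2 2.0.5, featureCounts 1.5.0-p3 and edgeR 3.18.1 are named in the submitters' processing notes. The build, the gene annotation and whether counting used strand were not given in the sources used here. Reads of a gene and of its overlapping or antisense neighbour therefore cannot be separated in these counts, and near-identical copies may have had reads split or dropped.

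The deposited counts were fitted with edgeR 4.0.16 in R 4.3.3 (quasi-likelihood test, TMM scaling, filterByExpr by tissue) with 1 mean per tissue over the 6 libraries, which leaves 3 residual degrees of freedom, and the contrast was rumen minus liver. P-values were adjusted by the Benjamini-Hochberg method over 11478 tested genes, and 0.05 was the threshold. Of 14179 symbols, 1775 had no counts in the 4 libraries. Levels between genes are not compared, since gene length was not used. For a gene at 0 in both libraries of a tissue, its fold was bounded with 3 counts over both of its libraries, 0.103 CPM in liver and 0.116 CPM in rumen. It covers counting error only. Alternatives were DESeq2 1.42.0, limma 3.58.1 (voom with 1 variance factor per tissue), other scalings and filters, a fit of the 4 libraries alone, a replicate block, and leaving out each library.

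The gene lists and the comparison were chosen with earlier results of these data known, so lists are described by counts and medians with no test. Genes were named by a rule: the 15 steepest called genes in each direction with a mean of at least 20 CPM in the higher tissue, up to 6 called members of each list with the highest levels and up to 4 called against its direction, the 10 genes with the largest shares of counts in each tissue, the 12 genes that differed most between the liver libraries in each direction with a mean of at least 100 CPM in liver, and the fixed cell type markers. The following were named for their role after their values were seen: CD46, COL18A1, COLEC11, CTSB, CYP8B1, ERBB3, EVPL, FN1, GAPDH, GFRA1, GNAS, HOXA5, HSPA1A, KRT8, NR2F2, RXRA, SPINK5, TFAP2A, UCHL1 and XBP1. Some genes that the rule names are not reported here.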

Additional observations from a re-analysis of the deposited data

How the results depend on the processing

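No gene called between rumen and liver was called in the opposite direction under any of the 14 alternatives. The 2304 higher and 2325 lower calls ranged from 1231 to 3391 and from 1013 to 3479 over the fits that leave out 1 library each. With limma voom they were 1439 and 2099, with DESeq2 2668 and 2686, with the 4 libraries alone 1659 and 1723, with library totals 2979 and 1785. Whether the replicate numbers pair the libraries is not known. Deviations from the tissue means correlated at -0.0018 between liver and rumen libraries of the same number. The values were 0.075 between liver and forebrain and -0.059 between rumen and forebrain. They cannot show whether libraries of the same number share a fetus, since each deviation also holds the technical and tissue-specific spread of its pair. With the numbers as a replicate block, 2017 genes were higher and 2004 lower. Of 467 named genes, 159 lost their call without Rumen 2, 155 without Rumen 1, 76 without Forebrain 1 and 75 without Forebrain 2. The numbers were 64 with the 4 libraries alone, 42 with limma voom, 38 with library totals and 33 with the replicate block. Each other fit lost 5 or fewer of the named genes it tested. The stricter filter described below tested 447 of the 467, and the fit of the 4 libraries alone tested 466. Named genes that a fit did not test, such as ACTA1 and APOD under the stricter filter, are not counted as lost. Of the named genes, 7 that were not called with all libraries were called in opposite directions without Liver 1 and without Liver 2, with log2 differences of 1.31 and -2.53 for EIF4H, 1.22 and -2.07 for ITGB1, -0.66 and 2.18 for NT5C3B, -0.93 and 1.99 for CCN1, -1.85 and 2.07 for MEG3, -1.67 and 1.18 for PIDD1, and -2.26 and 0.66 for XPC. The cause was not tested. Counts of called members that moved by over 1.5 times follow for the lists described. With the stricter filter (at least 10 counts in both libraries of a tissue and a mean of 5 CPM), the moves were those of higher members of apolipoproteins and lipoprotein assembly from 2 to 1, complement from 2 to 1, P450 from 7 to 4, keratins from 13 to 8, absorption from 8 to 5, solute carriers from 34 to 18, channels from 18 to 10 and those of lower members of granulocytes from 14 to 7, keratins from 2 to 1, epithelial factors from 1 to 0, smooth muscle and contraction from 1 to 0, HOX clusters from 0 to 1, WNT from 2 to 1, TGF-beta and BMP from 7 to 2, lymphocytes from 2 to 0, interferon response from 4 to 2. With the 4 libraries alone, the moves were those of higher members of complement from 2 to 0, gluconeogenesis from 3 to 1, fatty acid oxidation and ketone bodies from 1 to 0, endothelium from 2 to 1, respiratory chain from 14 to 8, chaperones from 6 to 3, zinc fingers from 32 to 18, cilia from 12 to 7, solute carriers from 34 to 22, lymphocytes from 3 to 0, interferon response from 1 to 0, matrix proteases from 4 to 2 and those of lower members of glycolysis from 9 to 5, smooth muscle and contraction from 1 to 0, respiratory chain from 13 to 8, proteasome from 8 to 5, DNA methylation from 6 to 3, zinc fingers from 8 to 4, matrix proteases from 2 to 1. With limma voom, the moves were those of higher members of complement from 2 to 0, gluconeogenesis from 3 to 1, fatty acid oxidation and ketone bodies from 1 to 0, P450 from 7 to 3, proliferation from 1 to 0, endothelium from 2 to 1, keratins from 13 to 8, absorption from 8 to 5, WNT from 18 to 11, Notch from 6 to 3, growth factors from 13 to 7, glia from 6 to 3, respiratory chain from 14 to 7, zinc fingers from 32 to 17, cilia from 12 to 6, solute carriers from 34 to 17, channels from 18 to 5, lymphocytes from 3 to 0, interferon response from 1 to 0, mesothelium from 2 to 1 and those of lower members of antigen presentation from 7 to 4, HOX clusters from 0 to 1. With the replicate block, the moves were those of higher members of complement from 2 to 0, P450 from 7 to 4, lymphocytes from 3 to 1, interferon response from 1 to 0 and those of lower members of epithelial factors from 1 to 0, smooth muscle and contraction from 1 to 0, TGF-beta and BMP from 7 to 4, zinc fingers from 8 to 5, interferon response from 4 to 2, matrix proteases from 2 to 1. With library totals and no scaling factor, the moves were those of higher members of urea cycle from 0 to 1, sterol synthesis from 1 to 2, bile acids from 0 to 1, conjugation from 3 to 8, iron and haem handling from 0 to 1, megakaryocytes and platelets from 0 to 1, mitochondrial ribosomes from 9 to 19, respiratory chain from 14 to 22, proteasome from 2 to 4, interferon response from 1 to 2 and those of lower members of glycolysis from 9 to 5, antigen presentation from 7 to 4, keratins from 2 to 1, smooth muscle and contraction from 1 to 0, elastic fibres from 4 to 2, respiratory chain from 13 to 8, proteasome from 8 to 5, stress response from 5 to 3, DNA methylation from 6 to 3, zinc fingers from 8 to 4, matrix proteases from 2 to 1. With DESeq2, the moves were those of higher members of urea cycle from 0 to 1, sterol synthesis from 1 to 2, bile acids from 0 to 2, megakaryocytes and platelets from 0 to 1, interferon response from 1 to 2, mesothelium from 2 to 4 and those of lower members of bile duct cells from 0 to 2, endothelium from 9 to 14, epithelial factors from 1 to 2, HOX clusters from 0 to 1, hedgehog pathway from 2 to 1, zinc fingers from 8 to 14. With no filter, the moves were those of lower members of bile duct cells from 0 to 1, HOX clusters from 0 to 1. With 2 libraries per tissue, no replicate could be tested as an outlier. Promoter motifs were not analysed here.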

Other observations

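Several further lists are given here, to be read beside the 20.1% of all tested genes that were higher in rumen and the 20.3% that were lower. Of 37 chaperones, 6 were higher in rumen (16.2%) and 9 lower (24.3%), which is near those shares. Higher chaperones numbered 11 without Liver 2, 2 without Rumen 1 and 3 without Rumen 2 or without Forebrain 2. Lower chaperones numbered 17 without Liver 2 and 4 without Rumen 1 or without Rumen 2. The small heat shock proteins of muscle were on the rumen side: HSPB6 had 416 and 542 CPM in the rumen libraries against 7 and 4.69 CPM in the liver libraries (82-fold higher), and HSPB1 had 1591 and 1528 CPM in the rumen libraries against 402 and 469 CPM in the liver libraries (3.58-fold higher). P4HB, a disulphide isomerase of secretory cells, had 1524 and 1545 CPM in the liver libraries against 610.1 and 523 CPM in the rumen libraries (2.71-fold lower), a call lost without Rumen 2. HSPA1A, the stress-induced heat shock protein, had 1431 and 3970.5 CPM in Liver 1 and Liver 2 and 4565 and 3846 CPM in Rumen 1 and Rumen 2 and was not called (edgeR adjusted p = 0.328). Of 19 hypoxia genes, 8 were higher and 5 lower. Higher hypoxia genes numbered 5 without Rumen 1. Lower hypoxia genes numbered 8 without Liver 1, 2 without Rumen 1 and 3 without Rumen 2. NDRG1 had 438 and 410.3 CPM in the rumen libraries against 26.1 and 54.1 CPM in the liver libraries (10.6-fold higher). Of 29 immediate early and stress genes, 7 were higher (24.1%) and 5 lower (17.2%). Higher stress genes numbered 11 without Liver 2 and 4 without Rumen 1 or without Rumen 2. Lower stress genes numbered 9 without Liver 1, 3 without Rumen 1, 1 without Rumen 2 and 2 without Forebrain 1 or without Forebrain 2. JUN had 148 and 153 CPM in the rumen libraries against 59.8 and 60.4 CPM in the liver libraries (2.5-fold higher), and GADD45A, a DNA damage response gene, had 100.4 and 135 CPM in the liver libraries against 38.3 and 30.4 CPM in the rumen libraries (3.43-fold lower).

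Among 33 DNA methylation and Polycomb genes, 4 were higher (12.1%) and 6 lower (18.2%), beside 20.1% and 20.3% over all tested genes. Lower methylation and Polycomb genes numbered 10 without Liver 1, 14 without Liver 2, 1 without Rumen 1 or without Rumen 2 and 3 without Forebrain 1 or without Forebrain 2. The methyltransferases went opposite ways. DNMT1, which copies methylation at replication, had 158 and 150.1 CPM in the liver libraries against 27 and 27.7 CPM in the rumen libraries (5.62-fold lower, edgeR adjusted p = 0.000449), and DNMT3A, which sets new methylation, had 156 and 181 CPM in the rumen libraries against 51.7 and 54.6 CPM in the liver libraries (3.17-fold higher, edgeR adjusted p = 0.00175). Of 163 numbered zinc finger genes, 32 were higher (19.6%) and 8 lower (4.91%). Higher zinc finger genes numbered 59 without Liver 2, 14 without Rumen 1 or without Rumen 2 and 17 without Forebrain 1 or without Forebrain 2. Lower zinc finger genes numbered 24 without Liver 1, 23 without Liver 2, 2 without Rumen 1 or without Rumen 2 and 4 without Forebrain 1 or without Forebrain 2. ZNF428 had 153 and 135 CPM in the rumen libraries against 22.3 and 20.9 CPM in the liver libraries (6.67-fold higher). Of 35 cilia genes, 12 were higher and none lower. Higher cilia genes numbered 5 without Rumen 1 and 6 without Rumen 2. Lower cilia genes numbered 1 without Liver 1 and 2 without Liver 2. IFT74, an intraflagellar transport gene, had 57.2 and 68.4 CPM in the rumen libraries against 5.81 and 13.5 CPM in the liver libraries (6.49-fold higher). Of 247 solute carriers, 99 were lower and 34 higher. Lower solute carriers numbered 59 without Rumen 1 and 56 without Rumen 2. Higher solute carriers numbered 18 without Rumen 1, 17 without Rumen 2, 20 without Forebrain 1 and 21 without Forebrain 2. SLC29A1, a nucleoside transporter, had 874 and 1362 CPM in the liver libraries against 37.8 and 35 CPM in the rumen libraries (30.7-fold lower). Of 42 gap junction and ion channel genes, 18 were higher and 5 lower. Higher channel genes numbered 10 without Rumen 1 and 11 without Rumen 2. Lower channel genes numbered 3 without Rumen 1 or without Rumen 2. The connexins split by tissue: GJB1, of hepatocytes, had 228 and 109 CPM in Liver 1 and Liver 2 and no counts in either rumen library, and GJA1, of muscle and epidermis, had 125 and 89.1 CPM in the rumen libraries against 1.79 and 3.53 CPM in the liver libraries (39.8-fold higher).

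Of 12 lymphocyte genes, 3 were higher and 2 lower. Higher lymphocyte genes numbered 0 without Rumen 1, Rumen 2, Forebrain 1 or Forebrain 2. Lower lymphocyte genes numbered 5 without Liver 2 and 1 without Rumen 2. BLK, a B cell kinase, had 4.32 and 13.6 CPM in Liver 1 and Liver 2 and no counts in either rumen library. Of 17 interferon response genes, 1 was higher and 4 lower. Higher interferon genes numbered 2 without Liver 1 or without Liver 2 and 0 without Rumen 1, Rumen 2, Forebrain 1 or Forebrain 2. Lower interferon genes numbered 8 without Liver 1, 7 without Liver 2, 1 without Rumen 1 or without Rumen 2 and 2 without Forebrain 1 or without Forebrain 2. Of 9 mesothelium genes, 2 were higher and 3 lower. Higher mesothelium genes numbered 4 without Liver 1 or without Liver 2 and 1 without Rumen 1. CDH2, N-cadherin, which hepatocytes also hold, had 124 and 201 CPM in the liver libraries against 30.9 and 39.4 CPM in the rumen libraries (4.62-fold lower), while MSLN, mesothelin, had 1.56 and 7.19 CPM in the liver libraries against 2.37 and 1.87 CPM in the rumen libraries and was not called. Of 19 matrix protease and inhibitor genes, 4 were higher and 2 lower. Higher protease genes numbered 9 without Liver 1 and 2 without Rumen 1, Rumen 2, Forebrain 1 or Forebrain 2. Lower protease genes numbered 6 without Liver 2, 0 without Rumen 1 and 1 without Rumen 2, Forebrain 1 or Forebrain 2. TIMP1, an inhibitor of matrix proteases, had 166 and 135 CPM in the rumen libraries against 23.2 and 27.6 CPM in the liver libraries (5.91-fold higher).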
